A study of Oryza sativa with 4 samples.

Results

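Among the transcripts listed as changed during coleoptile senescence in rice (Oryza sativa), 99 loci appear with 2 or more transcripts, and these loci are described here. They were found by joining the control and day 2 tables on the transcript ID and keeping every transcript whose MSU locus ID (the locus numbering of the MSU rice annotation) occurs at least 2 times. The rule gave 199 transcripts of the 3439 listed, and 99 loci of the 3141 that carry an ID. Of them, 98 loci had 2 transcripts and 1 locus had 3, while 3042 loci were listed with 1 transcript and 198 transcripts carried no ID. The rule reads IDs and no FPKM, but a locus can meet it only where at least 2 of its transcripts had been selected for change into the tables.

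RNA was sequenced from coleoptiles, the sheaths around the young shoot of a germinating cereal. Day 2 coleoptiles were from wild type seedlings of variety PB1, 9 days post germination, and control coleoptiles were from wild type PB1 seedlings, 7 days post germination. All seedlings had grown under water for 7 days. Per the study's methods the control tissue was taken straight after transfer to air and the day 2 tissue after 2 days in air, although the labels give submergence as the treatment of all 4 libraries. Time in air, age and senescence therefore cannot be told apart in any difference below. Each group had 2 libraries, but the tables hold 1 FPKM per transcript and group (fragments per kilobase of transcript, scaled by the mapped fragments of the group), so there is no error between replicates, no test and no depth per library for any value. A log2 ratio is that of day 2 over control, and higher or lower is used of a transcript with a ratio of 4-fold or more and an FPKM of 1 or more in at least 1 group. Every listed transcript above 0 in both groups passes that fold, and the smallest absolute log2 ratio among the 199 was 2.00. Per the study's methods a p-value over the replicates was a further condition, and no transcript is listed at 0 at day 2, although some are at 0 in control. Transcripts of these loci that changed less, missed the p-value or were at 0 at day 2 are therefore not in the tables. This bears on the split into higher and lower, and a share below is a share of the listed transcripts of a locus and not of all its RNA. The tables hold only transcripts selected for change, so the labelled tissue was not checked against marker genes.

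A plant gene can give several mature RNAs by alternative splicing, by starting at another promoter or by ending at another polyadenylation site. These can code for different proteins, or carry other untranslated ends around the same protein. In an assembly from short reads the transcripts of a gene that share exons also share reads, and the reads are divided between them by a statistical model, so their FPKM values are estimates that depend on each other. The libraries were made with a kit that does not mark the strand, so reads from a gene and from an overlapping antisense RNA could not be told apart.

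Of the 99 loci, 74 had their transcripts in 1 assembled gene model. A further 24 loci had each transcript in a gene model of its own, and the locus with 3 transcripts had 2 in 1 model and 1 in another. The spans in the tables are those of the gene models rather than of each transcript, and in all 78 gene models with 2 or more transcripts the transcripts had 1 span. Counted by span, 78 loci had overlapping transcripts, identical in each case, among them LOC_Os01g13320, LOC_Os06g30179 and LOC_Os06g39390, whose separate models shared a span. In the other 21 loci with separate models, and for the third transcript of the locus with 3, the spans lay apart. The gap had a median of 855.5 bases over these 22 loci, between 4 bases in LOC_Os09g27160 and 13609 bases in LOC_Os12g19381, and 13 gaps were under 1000 bases. The set thus holds loci with several transcripts of 1 gene model beside loci whose single ID covers neighbouring gene models.

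All transcripts of 98 loci lay on 1 side of control, 61 loci higher and 37 lower at day 2, and 1 locus had transcripts in opposite directions. Among loci listed with 1 transcript, 66.1% were higher or listed at 0 in control and 33.9% were lower. Counted by transcript, 119 of 199 (59.8%) were higher, against 56.8% of all listed transcripts, and 75 (37.7%) were lower, against 34.5%. The other 5 transcripts (2.51%) were listed at 0 in control, against 7.62% of all. Whole coleoptiles were sequenced, so fewer cells of a type and less RNA per cell cannot be told apart in any of these values. Of transcripts above 0 in both groups, 61.3% of those in these loci and 62.3% of the others were higher. The division into higher and lower was near that of the rest of the list. The split between higher and lower loci depended on the scaling between the groups. The listed transcripts summed to 1.86 times as much FPKM in control as at day 2. Dividing the day 2 values by that ratio, a log2 shift of 0.90, gave 32 higher and 37 lower loci. Multiplying them by it gave 61 higher and 15 lower ones. The remaining loci were no longer past 4-fold in all their transcripts, except that the locus with opposite directions still was after dividing. Transcripts nearer to control are not listed, so dividing could only take loci out of the higher ones and multiplying only out of the lower ones. These counts therefore do not give the split that another scaling would have. No locus could change direction, because the shift is smaller than 4-fold. Differences and shares within a locus do not depend on this scaling.

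The transcripts also changed by similar amounts. In the 95 loci with 2 or more transcripts above 0 in both groups, the largest minus the smallest log2 ratio within a locus had a median of 0.42, with quartiles of 0.21 and 0.80. It was under 0.5 in 53 loci, under 1 in 82 and 1 or more in 13. The median was 0.42 in the 57 higher loci and 0.42 in the 37 lower ones. It was 0.40 in 73 loci with 1 gene model and 0.62 in the 22 others, which include the locus with 3 transcripts and the locus with opposite directions. Both transcripts of a locus had to pass the same 4-fold limit to be listed, and transcripts nearer to control are not in the tables. Across the 56 higher loci with 2 such transcripts the log2 ratios of the pair had a Pearson correlation of 0.83 and a Spearman correlation of 0.82, and across the 37 lower loci 0.85 and 0.70. These correlations are descriptions across loci that share the same libraries.

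**Figure D1:**
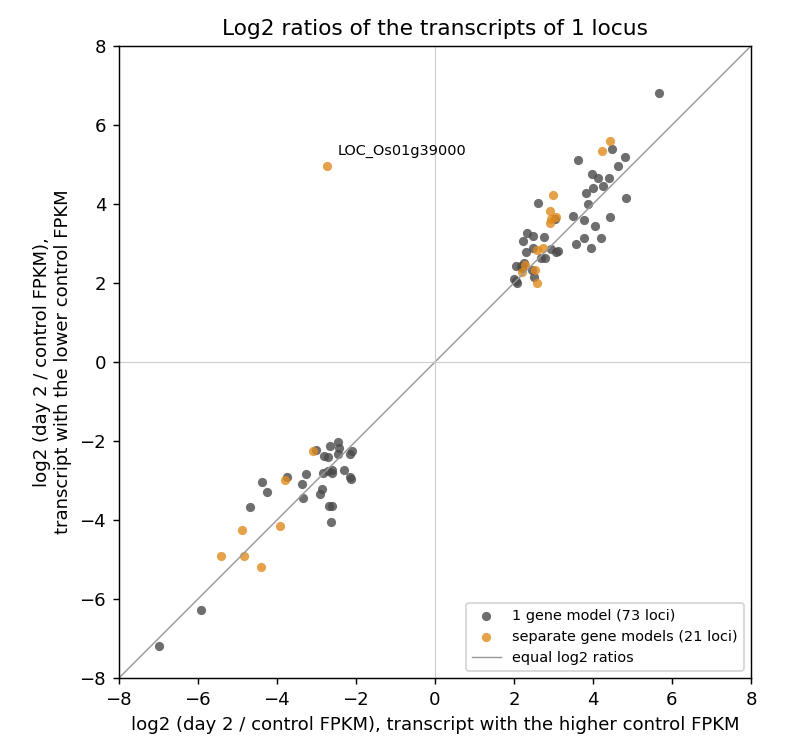
Each point is 1 locus with 2 transcripts above 0 in both groups (94 loci). The horizontal axis is the log2 ratio, day 2 over control FPKM, of the transcript with the higher control FPKM, and the vertical axis that of the transcript with the lower control FPKM, with the line of equal ratios and with colours for 1 or separate gene models. All points but LOC_Os01g39000 lie in the quadrants where both transcripts moved the same way, and the empty band around 0 is the 4-fold selection of the list.

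The transcript with the lower control FPKM had the larger change in 38 of 56 higher loci and in 19 of 37 lower loci. Control FPKM both orders the pair and divides the ratio, so these counts depend on the ordering and no asymmetry is read from them. Summed over transcripts, the higher loci had a median of 48.4 FPKM at day 2 and 3.94 FPKM in control, and the log2 ratio of the sums had a median of 3.19 with quartiles of 2.55 and 4.12 in the 60 loci above 0 in control. The lower loci had a median sum of 10.8 FPKM at day 2 and 104.5 FPKM in control, with a median log2 ratio of -2.95 and quartiles of -3.95 and -2.56.

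The transcripts of these loci had higher median FPKM than the rest of the list and similar median log2 ratios. Their higher transcripts had a median of 18.7 FPKM at day 2 and 1.76 FPKM in control, and the other higher transcripts 10.9 FPKM at day 2 and 0.989 FPKM in control. Their lower transcripts had a median of 4.68 FPKM at day 2 and 45.3 FPKM in control, and the other lower transcripts 3.91 FPKM at day 2 and 35.4 FPKM in control. The median log2 ratio was 3.07 for their higher transcripts and 3.14 for the others, and -2.90 for their lower transcripts and -2.81 for the others. Their gene models were longer, with a median span of 3428 bases against 2159 bases. These medians are descriptions and were not tested, and a locus with several transcripts above the limit of FPKM is what the rule picks. Together the 199 transcripts made up 4.07% of the listed FPKM at day 2 and 3.01% in control.

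Opposite directions were seen in LOC_Os01g39000 alone, for which the study's tables give no description. Its gene model at 21922041 to 21924309 on chromosome 1 had 48.7 FPKM at day 2 and 323.3 FPKM in control, a log2 ratio of -2.73. Its other model, at 21925150 to 21927844, had 3.48 FPKM at day 2 and 0.111 FPKM in control, a log2 ratio of 4.97. The models lay 840 bases apart and differed by 7.70 in log2 ratio, or by 4.72 with a pseudocount of 1 FPKM. As the models are separate, this is a difference between neighbouring models under 1 locus ID. In loci with 1 gene model, no transcripts moved in opposite directions. Without this locus the largest difference was 1.49.

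**Figure D2:**
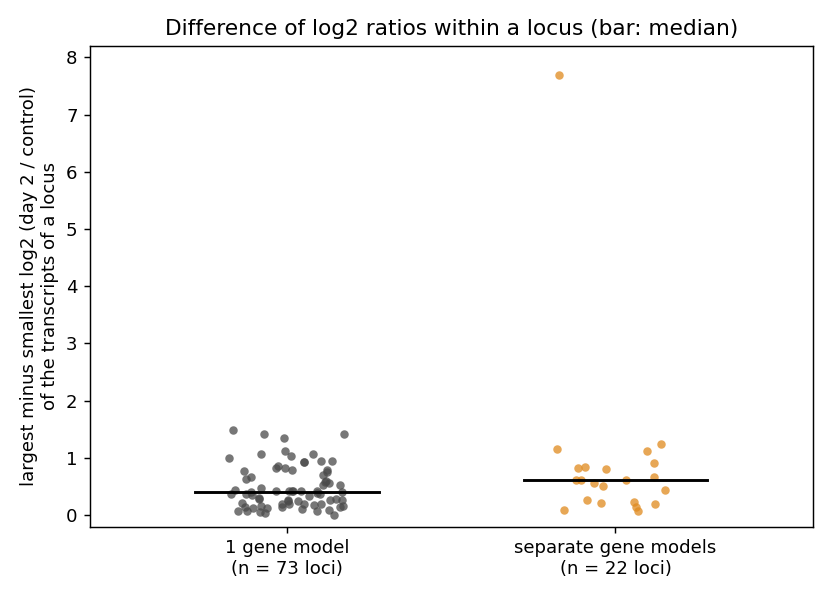
Largest minus smallest log2 ratio (day 2 over control FPKM) of the transcripts of a locus, 1 point per locus, for 73 loci with 1 gene model and 22 loci drawn as separate gene models, with horizontal scatter for display and bars at the medians of 0.40 and 0.62. The 22 include the locus with 3 transcripts, 2 of which are in 1 model. The point at 7.70 is LOC_Os01g39000, and the others reach at most 1.49.

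Among loci whose transcripts moved the same way, the 5 with the largest differences in log2 ratio are described next. The first is LOC_Os04g46940, which the RefSeq table names OsHMA5, a P-type ATPase that exports copper. Its leading transcript had 4.45 FPKM at day 2 and 0.363 FPKM in control (log2 ratio 3.62). The second transcript had 2.91 FPKM at day 2 and 0.0845 FPKM in control (5.11). Both control values were low, and the difference of 1.49 fell to 0.15 with a pseudocount of 1 FPKM. LOC_Os02g44980, a transmembrane amino acid transporter, differed at higher levels. Of its transcripts, 1 had 50.1 FPKM at day 2 and 3.09 FPKM in control (4.02), and the other had 25.2 FPKM at day 2 and 4.15 FPKM in control (2.60). The transcript that led at day 2 was thus the lesser one in control.

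LOC_Os03g21800 encodes the bZIP transcription factor RF2b, a DNA-binding protein with a leucine zipper. It was lower at day 2, with 8.98 FPKM at day 2 and 55.6 FPKM in control for its leading transcript (-2.63) and 2.16 FPKM at day 2 and 35.7 FPKM in control for the other (-4.05). LOC_Os08g03420, which encodes a kelch repeat protein, had 1.90 FPKM at day 2 and 39.6 FPKM in control for its leading transcript (-4.38), and 1.40 FPKM at day 2 and 11.4 FPKM in control for the other (-3.03). All transcripts of both loci were below control. The leading transcript had the smaller fold of the pair in RF2b and the larger fold in the kelch gene. In LOC_Os04g02050, an enzyme that makes the activated sulphate PAPS, the models lay 178 bases apart. It had 48.0 FPKM at day 2 and 6.02 FPKM in control in 1 model, and 9.67 FPKM at day 2 and 0.513 FPKM in control in the other. They were 1.24 apart in log2 ratio, and 0.01 apart with a pseudocount of 1 FPKM.

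At the other end, the transcripts of some loci were in nearly the same ratio. From here on, paired values give the transcripts of a locus in the same order in both groups. LOC_Os12g41860 encodes OsHox33, a homeodomain-leucine zipper protein with a lipid-binding START domain. Its transcripts had 15.7 and 14.9 FPKM at day 2 and 3.80 and 3.59 FPKM in control, and both log2 ratios were 2.05, 0.01 apart. The other 4 loci with the smallest differences were 0.03 to 0.07 apart without a pseudocount. They were LOC_Os01g41120 (a putative retrotransposon protein), LOC_Os08g36440 (HVA22, a family first described as induced by abscisic acid in barley), LOC_Os07g08750 (the protein kinase WNK3) and LOC_Os03g46640 (dUTPase, which removes dUTP from the nucleotide pool). With a pseudocount of 1 FPKM the difference was 0.38 in LOC_Os01g41120, 0.39 in LOC_Os03g46640 and 0.11 in LOC_Os08g36440. WNK3 was lower, with 4.21 and 3.92 FPKM at day 2 and 27.3 and 26.5 FPKM in control.

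The share of a locus held by its leading control transcript stayed similar in most loci. It had a median of 64.5% at day 2 and 65.7% in control over 98 loci, and the change had a median of -2.98 percentage points with quartiles of -8.13 and 2.53. Taken without sign, the change had a median of 5.79 points, and it was under 10 points in 71 loci. It was 20 points or more in 4 loci. The median signed change was -3.58 points in 60 higher loci and 0.94 points in 37 lower loci. The signed changes depend on how the leader is picked. A leader picked by control FPKM can only keep or lose its lead at day 2, which favours a fall. With the leader picked by day 2 FPKM, the sign turns in the 22 loci, described below, whose leader differed.

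The largest change of share was in LOC_Os03g01300. It encodes LTPL114, of a family of small secreted proteins that bind lipids. Its model at 208339 to 209118 on chromosome 3 had 33.6 FPKM at day 2 and was listed at 0 in control. The model 1962 bases further on, at 211081 to 211817, had 14.8 FPKM at day 2 and 0.581 FPKM in control. The share of this second model was 30.6% at day 2, against 100% in control, where it was the only one above 0. LOC_Os05g27304, a PTR2 peptide transporter, followed, with 15.4 FPKM at day 2 and 0.937 FPKM in control in 1 model, and 5.96 FPKM at day 2 and 0 in control in the other. The share of the first was 72.1% at day 2 and 100% in control. The amino acid transporter LOC_Os02g44980 came next, where the share of the leading control transcript was 33.5% at day 2 and 57.3% in control. In OsHMA5 it was 60.5% at day 2 and 81.1% in control. In the kelch gene LOC_Os08g03420 it was 57.6% at day 2 and 77.6% in control, just under the limit of 20 points. All 4 loci past 20 points were higher at day 2, as were 61 of all 99. Of these 4, LOC_Os03g01300 and LOC_Os05g27304 are past it through a transcript listed at 0 in control, and OsHMA5 through control values under 1 FPKM.

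**Figure D3:**
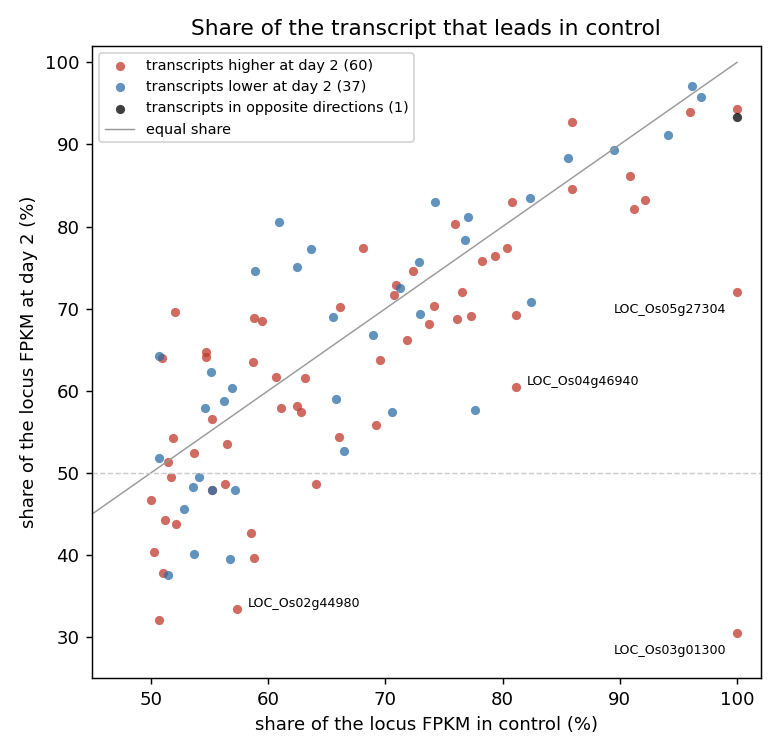
Share of the summed FPKM of a locus held by the transcript that leads in control, at day 2 (vertical, %) against control (horizontal, %), 1 point per locus (98 loci), with the line of equal shares and a dashed line at 50%. Most points lie near the line, and the 4 named loci changed by 20 percentage points or more.

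The leading transcript itself was a different one at day 2 in 22 of 98 loci, 14 of them higher and 8 lower. In 17 of the 22 the transcripts belonged to 1 gene model. Of all 98 loci, 60 were higher and 37 lower, and 73 had 1 gene model, so these counts were near the shares over all loci. The leads in the 22 loci were small. The leading transcript had a median of 1.27 times the next one at day 2, and 1.16 times in control in the 21 loci where the next one was above 0. Where the same transcript led in both groups, it had 2.43 times the next one in control (median of 74 loci). Only in LOC_Os03g01300 did the leader differ with a lead of at least 2-fold in both groups. The metallothionein LOC_Os03g17870 and the homeobox gene OsHox19, both described below, are among the 22.

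**Figure D4:**
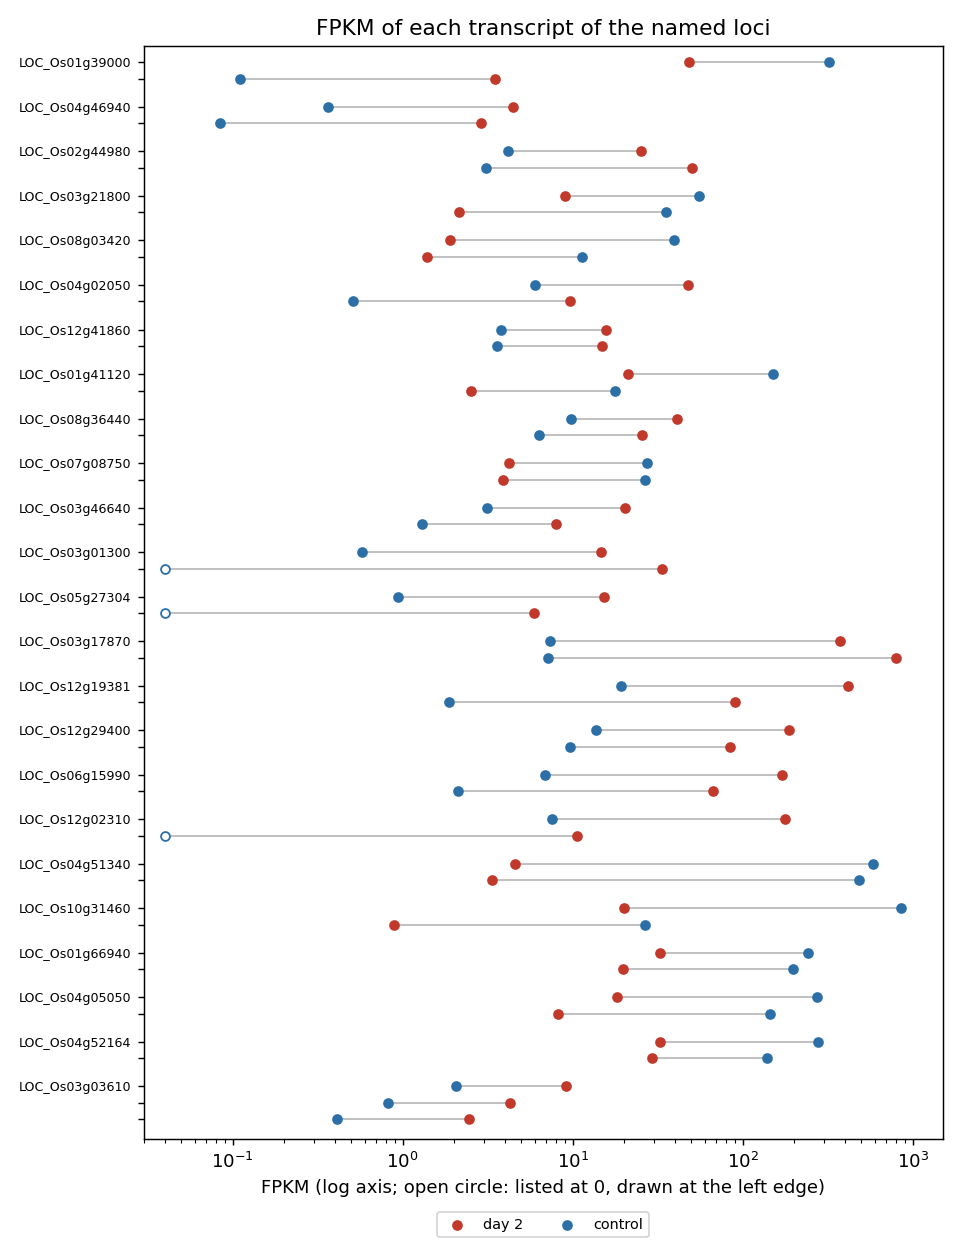
FPKM (log axis) of every transcript of the 24 loci named by rule, with 1 line per transcript joining its day 2 value and its control value, and the transcripts of a locus under each other. Open circles at the left edge are values listed at 0 in control. In all loci but LOC_Os01g39000 the lines of a locus run the same way.

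The most abundant locus at day 2 was LOC_Os03g17870, the metallothionein OsMT-I-1b, a small cysteine-rich protein that binds metals. Its transcripts had 796.7 and 376.3 FPKM at day 2, and 7.16 and 7.36 FPKM in control, with log2 ratios of 6.80 and 5.68. They were almost equal in control, and the first had 67.9% of the sum at day 2. LOC_Os12g19381 encodes RBCS1, a small subunit of Rubisco, which fixes carbon dioxide in photosynthesis. Its model at 11262346 to 11263636 on chromosome 12 had 417.5 FPKM at day 2 and 19.4 FPKM in control (4.43), and its model at 11277246 to 11278306 had 90.4 FPKM at day 2 and 1.87 FPKM in control (5.59). Rubisco small subunits and metallothioneins are families of similar genes, between which reads can be shared. The levels of both loci, and the division between the 2 models of RBCS1, are therefore uncertain. The paper reports a decline of a Rubisco small chain precursor in senescing coleoptiles. None of the 14 loci with a qPCR primer in the study is among the 99 loci described here.

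LOC_Os12g29400, a GRAM domain protein, had 187.6 and 84.6 FPKM at day 2 and 13.7 and 9.63 FPKM in control. LOC_Os06g15990, an aldehyde dehydrogenase, which turns aldehydes into acids, had 171.5 and 66.6 FPKM at day 2 and 6.91 and 2.12 FPKM in control. In LOC_Os12g02310, the lipid transfer protein LTPL11, 1 model had 176.9 FPKM at day 2 and 7.52 FPKM in control, and a neighbour 9 bases away had 10.6 FPKM at day 2 and was listed at 0 in control. These 5 loci with the highest sums at day 2 were all higher than in control. As only changed transcripts are listed, ranking by day 2 sums favours higher loci. The largest day 2 sum of a lower locus was 61.9 FPKM.

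The 5 loci with the highest sums in control were all lower at day 2. Ranking by control sums likewise favours lower loci, and the largest control sum of a higher locus was 24.9 FPKM. LOC_Os04g51340 encodes a pectin acetylesterase, which removes acetyl groups from pectin. Its transcripts had 4.59 and 3.34 FPKM at day 2 and 581.5 and 482.9 FPKM in control, with log2 ratios of -6.98 and -7.18. LOC_Os04g05050, a pectate lyase, which cuts pectin, had 18.3 and 8.23 FPKM at day 2 and 275.5 and 144.9 FPKM in control, in models 255 bases apart. LOC_Os04g52164, described as a transferase family protein, had 32.6 and 29.3 FPKM at day 2 and 277.6 and 140.0 FPKM in control. No description was found for the other 2. LOC_Os10g31460 had 19.97 and 0.893 FPKM at day 2 and 854.7 and 26.8 FPKM in control, and LOC_Os01g66940 had 32.6 and 19.7 FPKM at day 2 and 243.0 and 197.6 FPKM in control. In each of these loci the transcript that led in control also led at day 2.

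The locus with 3 transcripts was LOC_Os03g03610, which carries a domain of the beta-glucan synthases that make callose. In the model at 1582177 to 1585728 on chromosome 3 the transcripts had 9.14 and 4.31 FPKM at day 2 and 2.08 and 0.819 FPKM in control, with log2 ratios of 2.14 and 2.40. The transcript in the model at 1594652 to 1602046 had 2.44 FPKM at day 2 and 0.411 FPKM in control (2.57). All 3 were higher, and the order of their levels was the same in both groups.

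A gene description was found for 83 of the 99 loci, 53 of them higher and 30 lower, and loci were grouped by keywords in it. Of the 2480 other described loci, 70.8% were higher. Of 10 transport loci, 7 were higher, while 88.4% of the 112 other transport loci were. Beside those above, LOC_Os04g51610, the calcium pump OsACA5 of the plasma membrane type, had 25.7 and 24.4 FPKM at day 2 and 1.32 and 1.71 FPKM in control. LOC_Os08g39370, a citrate transporter, had 24.3 and 10.7 FPKM at day 2 and 1.32 and 1.21 FPKM in control. LOC_Os12g31850, a ureide permease, of a family that carries allantoin and related nitrogen compounds, had 54.7 and 43.3 FPKM at day 2 and 11.7 and 5.20 FPKM in control. The 3 lower ones included LOC_Os03g05620, the phosphate transporter OsPT1, with 27.0 and 6.28 FPKM at day 2 and 196.8 and 58.5 FPKM in control.

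All 7 loci of carbon and energy metabolism were higher, as were 77.1% of the 48 others of that group. LOC_Os03g22120, the sucrose synthase SUS4, which splits sucrose, had 89.2 and 71.0 FPKM at day 2 and 10.02 and 10.53 FPKM in control. LOC_Os11g10980, a pyruvate kinase of the last step of glycolysis, had 16.4 and 16.1 FPKM at day 2 and 1.03 and 1.10 FPKM in control. In LOC_Os02g07490, a glyceraldehyde-3-phosphate dehydrogenase, the transcripts had 58.8 and 35.7 FPKM at day 2 and 2.17 and 2.26 FPKM in control, and the order between them changed. The group also held 2 loci of mitochondrial NAD-dependent malic enzymes, which turn malate into pyruvate. LOC_Os07g31380 had 23.5 and 14.6 FPKM at day 2 and 5.86 and 3.41 FPKM in control, and LOC_Os10g35960 had 38.5 and 30.0 FPKM at day 2 and 5.58 and 6.09 FPKM in control.

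Of 9 redox and detoxification loci, 8 were higher, against 74.3% of the 101 others. The peroxiredoxins, which reduce peroxides, are named PRXIIF (LOC_Os01g16152) and PRXIIE-1 (LOC_Os06g42000). PRXIIF had 55.3 and 20.6 FPKM at day 2 and 8.04 and 3.30 FPKM in control, and PRXIIE-1 had 47.4 and 21.5 FPKM at day 2 and 2.70 and 0.848 FPKM in control. LOC_Os03g31550, described as an aldehyde oxidase and listed in RefSeq with the synonym XDH, had 38.7 and 13.2 FPKM at day 2 and 2.85 and 1.09 FPKM in control. The exception was a peroxidase precursor, LOC_Os01g22249, with 12.0 and 1.17 FPKM at day 2 and 352.5 and 22.2 FPKM in control, in models 6866 bases apart.

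Of 13 loci of lipid, sterol and secondary metabolism, 9 were higher, against 74.4% of the 176 others. The 9 include OsHox33, whose description names only its START domain. The higher loci also included 2 enzymes of successive steps towards plant sterols. LOC_Os03g12910, a squalene monooxygenase, had 47.4 and 24.3 FPKM at day 2 and 1.69 and 0.660 FPKM in control. LOC_Os11g18366, a cycloartenol synthase, which closes the ring system of the product, had 5.76 and 2.09 FPKM at day 2 and was listed at 0 for both in control. LOC_Os06g03930, described as cytochrome P450 86A1, a fatty acid hydroxylase needed for suberin in Arabidopsis, had 59.9 and 40.5 FPKM at day 2 and 4.85 and 4.90 FPKM in control. Among the 4 lower loci, OsAT10 (LOC_Os06g39390), an acyltransferase that acts on phenolic acids of the rice cell wall, had 2.33 and 0.882 FPKM at day 2 and 66.1 and 26.6 FPKM in control.

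In the cell wall group the larger number was lower, 7 of 10 loci, while 59.3% of the 150 other loci of the group were higher. Beside the pectin acetylesterase, these included a pectinesterase, LOC_Os01g13320, with 2.53 and 1.41 FPKM at day 2 and 52.9 and 51.5 FPKM in control. They also included a beta-galactosidase, LOC_Os01g65460, with 10.8 and 7.50 FPKM at day 2 and 103.6 and 53.8 FPKM in control. LOC_Os04g54810, a beta-D-xylosidase, was higher, with 40.7 and 18.7 FPKM at day 2 and 3.44 and 2.34 FPKM in control. The pectate lyase LOC_Os04g05050, lower at day 2, is not counted in the group because the keywords missed its description.

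Of 8 loci of amino acid and nitrogen metabolism 6 were higher, against 81.7% of the 60 others. LOC_Os02g02320, the serine carboxypeptidase OsSCP6, a protein-degrading enzyme, had 104.8 and 80.2 FPKM at day 2 and 13.7 and 11.1 FPKM in control. LOC_Os05g48200, a chloroplast glutamate synthase, was lower, with 1.28 and 1.07 FPKM at day 2 and 6.68 and 7.47 FPKM in control. Among 7 loci of kinases, receptors and calcium sensors 3 were higher and 4 lower, and 38.7% of the 150 others were higher. LOC_Os03g27280, the stress-related kinase SAPK1, had 25.8 and 22.4 FPKM at day 2 and 5.62 and 4.32 FPKM in control. LOC_Os03g53200, the calmodulin-like protein OsCML4, had 55.9 and 1.65 FPKM at day 2 and 276.2 and 10.9 FPKM in control.

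Of 4 loci placed by keyword among transcription factors and other DNA-binding proteins 3 were higher, against 61.3% of the 225 others. The median difference in log2 ratio within these 4 loci was 1.02, against 0.42 for all described loci. OsHox33, whose transcripts were 0.01 apart, is not among these 4 loci, because its description placed it in the lipid group. It is counted among all described loci. A knotted-type homeobox gene, LOC_Os03g03164, had 23.0 and 13.0 FPKM at day 2 and 1.06 and 1.02 FPKM in control. OsHox19 (LOC_Os03g12860), a homeodomain-leucine zipper gene, had 5.20 and 4.92 FPKM at day 2 and 0.367 and 0.655 FPKM in control, in models 869 bases apart. LOC_Os05g10670, a CCCH zinc finger gene, had 48.4 and 31.8 FPKM at day 2 and 1.19 and 1.69 FPKM in control. In OsHox19 and in the zinc finger gene the order of the models differed between the groups. These group counts are small and no test of them was made.

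**Figure D5:**
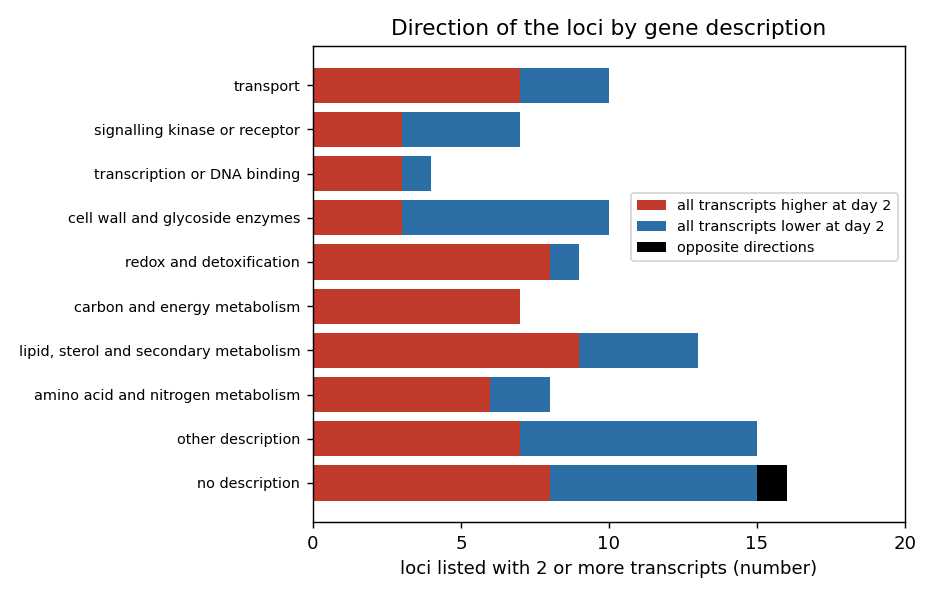
Number of loci listed with 2 or more transcripts by gene description, split into loci with all transcripts higher at day 2, all lower, or opposite directions. All 7 loci of carbon and energy metabolism were higher, and 7 of 10 in the cell wall group were lower.

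MicroRNAs are short RNAs that pair with messenger RNAs and lead to their cleavage or repress their translation. Of the 99 loci, 11 (11.1%) were predicted miRNA targets in the study, against 255 of the 3042 loci with 1 transcript (8.38%). Of these 11 loci 7 were higher and 4 lower at day 2, and of all 99 loci 61 were higher and 37 lower. The prediction names a locus, so which of its transcripts holds the site was not determined. The mature sequences below, from the study's supplementary tables, are each predicted to pair with 1 of these loci and are shown because a site outside the shared exons would meet only some transcripts of the locus. They are written 5′ to 3′, with the seed (bases 2 to 8) in capitals.
osa-miR160f-3p: gCAUUGAGggagucaugcagg
osa-miR167d-5p: uGAAGCUGccagcaugaucuga
osa-miR528-3p: cCUGUGCUugccucuuccauu
miRNA_16: cGAUGUUGgcaugguucaauc
miRNA_27: aUCAUGCUgugcaguuucauc
miRNA_75: uGGAAUGUugucugguucaag

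These are predictions of the study that were not tested here. That of osa-miR390-5p for LOC_Os04g56710, a GTP cyclohydrolase whose transcripts were 0.28 apart, is not printed because the tables list this miRNA in forms with different first bases. The predicted partner of osa-miR160f-3p is LOC_Os08g02996, a receptor-like kinase, which had 5.18 and 2.13 FPKM at day 2 and 98.1 and 20.9 FPKM in control. Its transcripts differed by 0.95 in log2 ratio. The predicted partner of osa-miR167d-5p is LOC_Os08g37874, of the 2-nitropropane dioxygenase family, with 8.57 and 3.81 FPKM at day 2 and 1.69 and 0.394 FPKM in control, 0.94 apart. These were the pairs with the largest difference among the 6. That of osa-miR528-3p is LOC_Os01g69050, described as related to lysine ketoglutarate reductase, with 11.6 and 6.61 FPKM at day 2 and 2.80 and 1.23 FPKM in control. Of the miRNAs numbered by the study, miRNA_16 is predicted for LOC_Os03g48300 (a histidine acid phosphatase), miRNA_27 for LOC_Os05g07680 (KIP1) and miRNA_75 for the callose synthase locus LOC_Os03g03610, for which osa-miR529b and osa-miR166d-5p are predicted as well. The acid phosphatase had 17.9 and 12.5 FPKM at day 2 and 76.6 and 59.7 FPKM in control. KIP1 had 3.47 and 5.17 FPKM at day 2 and 27.9 and 24.1 FPKM in control, so that its order differed between the groups. The levels of the miRNAs were not analysed here.

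The loci lay on all chromosomes with listed transcripts, from 2 of 191 loci with an ID on chromosome 9 (1.05%) to 20 of 418 on chromosome 3 (4.78%). Of the 14 loci with a qPCR primer in the study none was among the 99.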

How the data were processed

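Coleoptile RNA was sequenced in 4 libraries, 2 from day 2 and 2 from control seedlings. As the study's methods describe, quality filtering was done with NGS QC Toolkit, mapping to the Nipponbare genome (build IRGSP-1.0) with TopHat, assembly with Cufflinks and Cuffmerge, and the comparison of groups with Cuffdiff. The deposited FPKM values are the authors' pooled values, 1 per transcript and group, of transcripts past a 4-fold change or listed at 0 in control; none is at 0 at day 2. Per the methods, a p-value over replicates also selected them. The pooling hides the spread between libraries, and no number of fragments is given behind a value. Coordinates are given as in these tables, on the same build.

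The tables were joined on the transcript ID in Python 3.11.15 with pandas 2.3.3 and numpy 2.4.6, and figures were drawn with matplotlib 3.10.9. Spaces were stripped from locus IDs. The log2 ratio of day 2 to control had no pseudocount, and transcripts at 0 in control were set apart. The main transcript of a locus was that with the highest control FPKM. The steps were tested on simulated data. The planned limma test was not run because there is 1 value per group, so there are no p-values. Gene descriptions (83 loci) were taken from the study's tables without their values, and symbols of 69 loci from the RefSeq gene table (assembly ASM3414082v1), matched by Entrez ID.

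The members and lists were chosen with earlier results of these data known. Loci were named by rule: those with opposite directions, the 5 largest and 5 smallest differences in log2 ratio, the 5 largest changes of share, the 5 highest sums per group, loci with 3 transcripts, loci with 1 transcript at 0 in control and another above, and loci measured by qPCR. Further loci in the function groups and among miRNA targets were chosen after their values were seen. Alternatives were other filters on FPKM, pseudocounts, gene models, spans and definitions of the main transcript. The scaling between groups was added after seeing the data.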

Additional observations from a re-analysis of the deposited data

How the results depend on the processing

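Of 68 alternatives for 13 summary values, 18 could not move a value. All 199 transcripts pass the filter on FPKM, so that lifting it changes none of them. The shares of a pair sum to the whole, so the unsigned change of share is the same whichever leads. All overlapping spans are identical, and the other transcripts count singly in any case. Of the other 50, 42 stayed within 1.5 times, 8 moved and none reversed. Reversed means a change of sign, which is possible only for the median log2 ratios, since the other summary values cannot be negative. The 50 also include the count of lower loci after dividing day 2 and of higher loci after multiplying it, which that scaling could not change. The count of loci with opposite directions, 1 in the report, was 0 with FPKM of at least 1 in both groups, with FPKM of at least 5 in at least 1 group, with 1 gene model only and with day 2 multiplied by the ratio of the listed sums. The count of higher loci, 61 in the report, was 37 with FPKM of at least 1 in both groups and 32 with day 2 divided by that ratio, and the count of lower loci, 37 in the report, was 15 with day 2 multiplied by it. The count of loci whose leading transcript differed, 22 in the report, was 1 with both leads at least 2-fold. The filters, the restriction to 1 gene model and the lead each leave fewer loci to count by construction. The scaling likewise can only take loci out of the direction that it moves towards control. The median difference in log2 ratio stayed between 0.40 and 0.62, and the count of loci with a change of share of 20 points or more was 3 with FPKM of at least 5 in at least 1 group (4 in the report). For single loci, the pseudocount moved the difference in log2 ratio in 15 of 42 recomputed values. With a pseudocount of 1 FPKM it was 0.01 in LOC_Os04g02050 (1.24 in the report), 0.63 in LOC_Os12g19381 (1.16) and 1.48 in LOC_Os10g31460 (0.51).

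No paired analysis was possible because each group has a single pooled FPKM column. Leaving out replicates and the limma fit were not run, for that reason too. The number of fragments behind a value is not given, so values under 1 FPKM in 1 group carry a ratio whose precision is unknown. Transcripts under the 4-fold limit are not in the tables, so a share of a locus covers its listed transcripts only.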

Other observations

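Outside the rule, 3 further gene models, on chromosomes 3, 7 and 8, were listed with 2 transcripts each and no locus ID. In each of them both transcripts changed in the same direction. The model on chromosome 3, at 32628789 to 32632431, had 13.8 and 14.6 FPKM at day 2 and 1.00 and 1.99 FPKM in control, with log2 ratios of 3.78 and 2.88. The model on chromosome 7, at 22385351 to 22386925, had 3.79 and 1.81 FPKM at day 2 and 54.8 and 19.5 FPKM in control. The model on chromosome 8, at 5371809 to 5377163, had 349.2 and 346.3 FPKM at day 2 and 26.6 and 14.6 FPKM in control. The transcripts of this model were nearly equal at day 2 and differed in control. In the whole list, 10 spans were each given to 2 gene models.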
